A study of Homo sapiens with 4 samples.

Results

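*DDIT4* and 9 other genes of the mTOR pathway were examined in A549 cells, an established human lung adenocarcinoma cell line. The 10 genes (*DDIT4*, *DDIT4L*, *SESN2*, *TSC1*, *TSC2*, *RHEB*, *MTOR*, *RPTOR*, *RICTOR* and *RPS6KB1*) are among 22439 genes matched to probes through RefSeq accessions. They were chosen from earlier results of these same arrays, in which *DDIT4* had one of the lowest differences from mock after *miR-486-5p*, so their differences from mock are given as a description with no test. RNA was hybridized to 4 one-color Agilent arrays: *miR-486-5p* transfectants on 1, *miR-486-3p* transfectants on 1, and mock cells, which received only the transfection reagent, on 2. With 1 array per strand, an effect of a strand and of its single culture or array cannot be told apart. No array held cells transfected with a control small RNA. An effect of a strand and of transfecting any small RNA thus cannot be told apart either. All 4 arrays came from 1 slide and 1 scan. As a model, A549 is a line with an inactivating mutation of *STK11* (LKB1), the kinase that activates AMPK, and the miRNAs were introduced with a lipid reagent.

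Of 8 markers of epithelial cells and of A549, 5 had a probe well above background on all 4 arrays, namely *KRT8*, *KRT18*, *KRT19*, *NQO1* and *AKR1C1*. *EPCAM* and *AKR1B10* were well above background on some of the arrays, and *CDH1* on 0. A probe was well above background on all 4 arrays also for 1 of 2 alveolar type II markers, 1 of 2 endothelial markers, 2 of 3 fibroblast markers and 1 of the 2 leukocyte markers, of which 1 had a matched probe. Their part in the results below was not tested.

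The kinase mTOR works in complexes that promote translation and growth and restrain autophagy when growth factors and amino acids are plentiful. The small GTPase RHEB activates the complex built on RPTOR, and the TSC1-TSC2 complex switches RHEB off. *DDIT4* (REDD1) is induced by hypoxia, glucocorticoids and amino acid or DNA stress and restrains mTOR through the TSC complex, while SESN2 restrains it in the absence of leucine.

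The promoters of *DDIT4* and *SESN2* are shown because both encode stress-induced inhibitors of mTOR and both were lower than mock after *miR-486-3p*. They are the 250 bases before and 50 after the gene start, from RefSeq (GRCh38.p14), at chr10:72273674-72273973 and chr1:28259268-28259567, both on the + strand. All 10 genes matched an entry. Capitals mark ACGTG, the core of the hypoxia response element, and CCAAT, each searched on both strands, so that CCAAT on the other strand reads ATTGG.
DDIT4: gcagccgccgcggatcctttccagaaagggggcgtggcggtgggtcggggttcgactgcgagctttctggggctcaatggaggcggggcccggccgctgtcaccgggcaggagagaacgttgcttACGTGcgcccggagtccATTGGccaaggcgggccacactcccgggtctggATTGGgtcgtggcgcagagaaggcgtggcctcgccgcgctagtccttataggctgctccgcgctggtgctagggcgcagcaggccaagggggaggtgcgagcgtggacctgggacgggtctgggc
SESN2: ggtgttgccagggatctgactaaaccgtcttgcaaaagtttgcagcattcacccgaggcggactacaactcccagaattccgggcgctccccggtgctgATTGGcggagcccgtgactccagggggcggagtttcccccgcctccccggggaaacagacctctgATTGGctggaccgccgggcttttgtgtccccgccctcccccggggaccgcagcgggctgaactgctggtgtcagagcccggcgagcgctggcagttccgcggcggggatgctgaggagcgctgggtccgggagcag
Of 35116 promoters of this length, 21.4% held ACGTG and 34.6% held CCAAT. Of the 10 genes, ACGTG was found for 4 (*DDIT4*, *RHEB*, *RICTOR* and *TSC2*) and CCAAT for 5 (*DDIT4*, *SESN2*, *MTOR*, *RHEB* and *RICTOR*). *TSC2* had windows at 2 gene starts, of which 1 held 2 overlapping ACGTG matches, on opposite strands of a single CACGTG, and the other 0. The *DDIT4* window held 1 ACGTG and 2 CCAAT, and the *SESN2* window 0 and 2. A match is a description of the letters and not evidence of binding.

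Signals are given as log2 above or below each array's 75th percentile. *DDIT4* was at 3.977 and 4.002 in mock cells, 0.93 with *miR-486-5p* and 2.54 with *miR-486-3p*. It was thus highest in the mock cells, intermediate after *miR-486-3p* and lowest after *miR-486-5p*, and neither transfected value came near the mock values. The difference from the mock mean was -3.06 after *miR-486-5p*, a signal 8.33-fold below mock, and -1.45 after *miR-486-3p*, 2.73-fold below. The mock values had an SD of 0.018 (n = 2). The *DDIT4* probe was printed in 10 spots on each array, and these spots ran from 3.92 to 4.03 and from 3.93 to 4.04 on the mock arrays, from 0.87 to 1.04 after *miR-486-5p*, and from 2.41 to 2.60 after *miR-486-3p*. The spots of different groups did not overlap, but they share 1 RNA sample per array and are not replicates of the cells. After *miR-486-5p*, 1 of 16024 genes had a lower difference than *DDIT4*, and after *miR-486-3p*, 1225 of 16446 did. The related gene *DDIT4L* (REDD2) was not well above background on any array, and no fold is given for it.

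**Figure D1:**
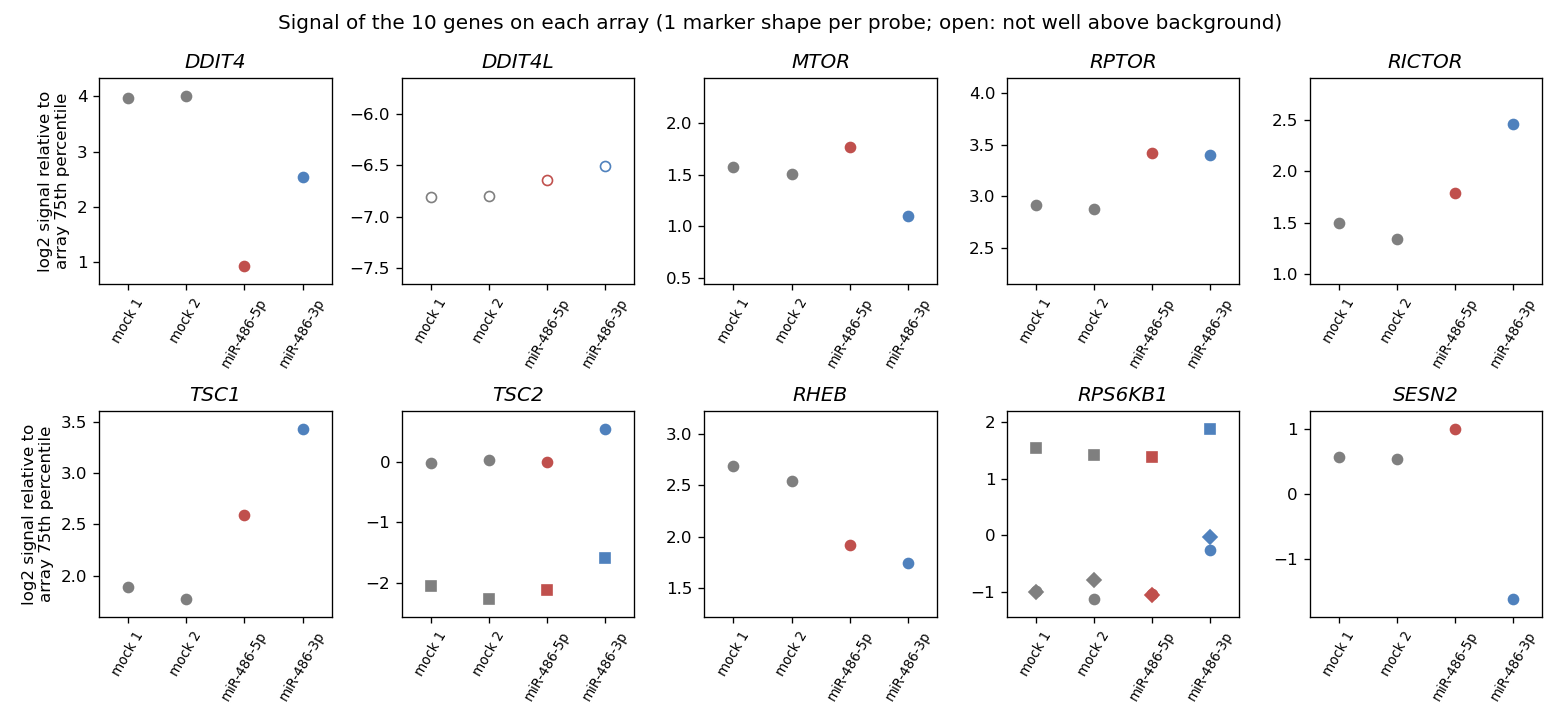
Log2 signal above or below each array's 75th percentile (vertical axis) for the 10 genes on the 2 mock arrays and the 2 transfected arrays (horizontal axis), with each probe as a marker shape; each panel has its own scale, and open markers are not well above background. *DDIT4* lies at 3.977 and 4.002 in mock cells and at 0.93 and 2.54 after the strands.

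*SESN2* was at 0.56 and 0.53 in mock cells, 0.99 with *miR-486-5p* and -1.62 with *miR-486-3p*. Unlike *DDIT4*, it was highest after *miR-486-5p* and lowest after *miR-486-3p*, outside the mock values both times. Its differences from mock were 0.44 and -2.16, the latter 4.48-fold below mock. With normexp background correction the second value was -1.13.

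Among the genes that act on RHEB, *TSC1*, which stabilizes the TSC complex, was at 1.89 and 1.77 in mock cells, 2.60 with *miR-486-5p* and 3.43 with *miR-486-3p*. It was above both mock arrays after either strand, and above their mean by 0.77 and 1.60. *RHEB* itself was at 2.69 and 2.54 in mock cells, 1.92 with *miR-486-5p* and 1.74 with *miR-486-3p*, below mock after either strand, with differences of -0.69 and -0.87. The 2 *TSC2* probes differed from mock by -0.00 and 0.04 after *miR-486-5p* and by 0.54 and 0.57 after *miR-486-3p*. Thus *RHEB* and its inhibitor subunit *TSC1* lay on opposite sides of mock after each strand, while *TSC2*, which carries the activity toward RHEB, was near mock after *miR-486-5p*.

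*MTOR*, the kinase, was at 1.57 and 1.51 in mock cells, 1.77 with *miR-486-5p* and 1.102 with *miR-486-3p*, with differences of 0.23 and -0.44. *RPTOR*, the substrate-binding subunit of the first complex, was at 2.92 and 2.87 in mock cells, 3.42 with *miR-486-5p* and 3.40 with *miR-486-3p*. *RICTOR*, which defines the second complex, was at 1.501 and 1.342 in mock cells, 1.78 with *miR-486-5p* and 2.46 with *miR-486-3p*. *RPTOR* was above mock after either strand, by 0.52 and 0.51, or by 0.45 and 0.13 under median scaling, and *RICTOR* more after *miR-486-3p* (1.04) than after *miR-486-5p* (0.36, or 0.19 with normexp correction). The 3 probes of *RPS6KB1*, the S6 kinase that mTOR phosphorylates, differed from mock by -0.16 to 0.02 after *miR-486-5p* and by 0.39 to 0.88 after *miR-486-3p*.

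Of the 9 genes with a probe in use, 2 were below -0.5 after *miR-486-5p* (15.9% of all 16024 genes) and 2 above 0.5 (13.8%). After *miR-486-3p*, 3 were below -0.5 (27.2% of all 16446 genes) and 5 above 0.5 (30.4%). Nothing is read from these counts, since the genes were chosen on this contrast. For 28246 probes that were well above background throughout, the mock arrays differed by an SD of 0.196, and 2.80% of probes passed 0.5 in size.

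**Figure D2:**
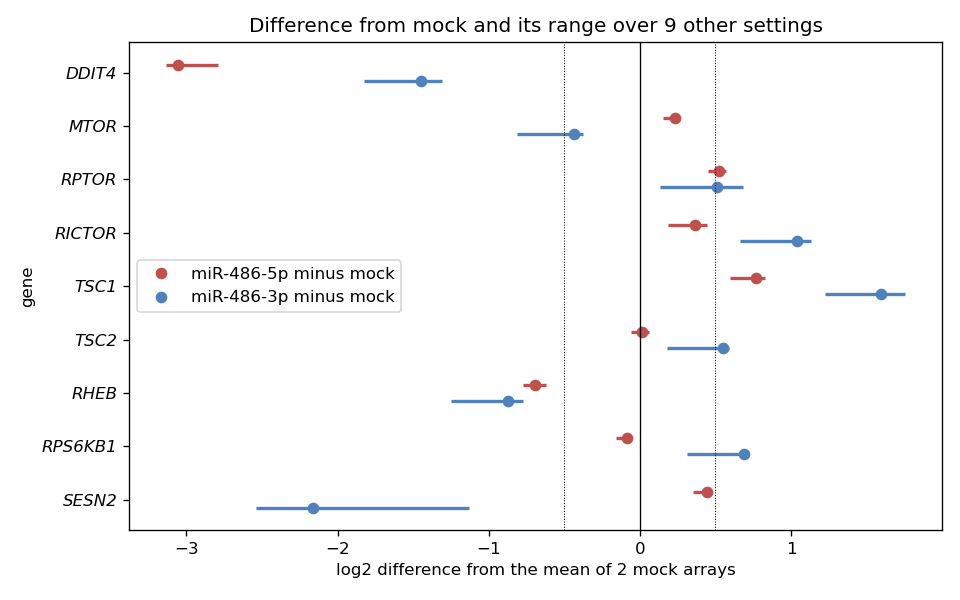
Log2 difference from the mock mean of 2 arrays (horizontal axis) for the 9 genes with a probe in use; points are the reported values and lines run from the lowest to the highest value over 9 other settings, with dotted lines at -0.5 and 0.5. The lines of *DDIT4* stay below -0.5 for both strands.

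With scaling to the median, the median of all genes moved by -0.37 after *miR-486-3p* and by -0.08 after *miR-486-5p*. Under that scaling *MTOR* was at -0.81 after *miR-486-3p*, *RPTOR* at 0.13, *TSC2* at 0.18 and *RPS6KB1* at 0.32, so that 4 of the 9 genes changed side of the limit. *RICTOR* was at 0.67 there and at 1.04 in the main values. *RPTOR* after *miR-486-5p* was also inside the limit, at 0.45. With normexp correction *RPTOR* was at 0.48 and 0.42 after the 2 strands, and *TSC2* and *RPS6KB1* were at 0.32 and 0.41 after *miR-486-3p*. For that strand *TSC2* was also inside the limit with quantile normalization and on the authors' log2 values (0.468 in each), *RPS6KB1* by its brightest probe (0.39) and *RPTOR* without mock replicate 2 (0.485). *DDIT4*, *SESN2*, *RHEB*, *TSC1* and *RICTOR* stayed past 0.5 on the same side after *miR-486-3p* under each of the settings run.

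The wider pathway was described with 94 list genes outside the 10, of which 91 had a matched probe (not *BMT2*, *EIF4EBP3* or *TTI1*). After *miR-486-5p*, 12 of 89 measured genes were below -0.5 (15.9% of all genes) and 15 above 0.5 (13.8%), with a median of 0.05 against 0.03 over all genes. After *miR-486-3p*, 25 of 90 were below -0.5 (27.2%) and 22 above 0.5 (30.4%), with a median of -0.16 against 0.06 over all genes. Under median scaling, the latter counts were 47 and 14, and 41.8% and 17.8% of all genes passed the limits, while after *miR-486-5p* 15 were lower and 10 higher, against 19.1% and 10.9% of all genes. limma was fitted over all 4 arrays, with the spread taken from the mock arrays alone, on the assumption that the 2 transfected arrays have the same spread. It called 11 of 90 list genes after *miR-486-5p*, 2 lower and 9 higher, where it called 10.2% of all genes (3.58% as higher and 6.66% as lower). With *miR-486-3p* it called 60 of 90, with 35 lower and 26 higher (1 gene had probes in both directions), where it called 62.2% of all genes, 31.6% lower and 31.9% higher. Under median scaling these calls were 53 lower and 17 higher, against 45.5% lower and 20.5% higher over all genes, so the split depends on the scaling in the list and over all genes alike. Between the strands, 51 of 90 list genes were called, where it called 53.1% of all genes. That contrast sets 1 array against 1 and takes its spread from mock arrays outside it, so no difference between the strands is read from it. Every *miR-486-5p* call in the fit used here had a limma adjusted p just below the threshold of 0.05. The 11 *miR-486-5p* calls and their split varied with the values used: they were 13 lower and 12 higher under median scaling (14.1% and 6.54% of all genes) and 24 and 30 with normexp correction (23.1% and 22.2%). limma called 0 genes of any kind for this strand on the authors' log2 values and 0 with no filter on dim probes, where 53 list genes had an unadjusted p below 0.05 in each, so every *miR-486-5p* call given below is absent in both settings. It called 29, 12 lower and 17 higher, on values with a floor for dim groups, a choice made after seeing the data.

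**Figure D3:**
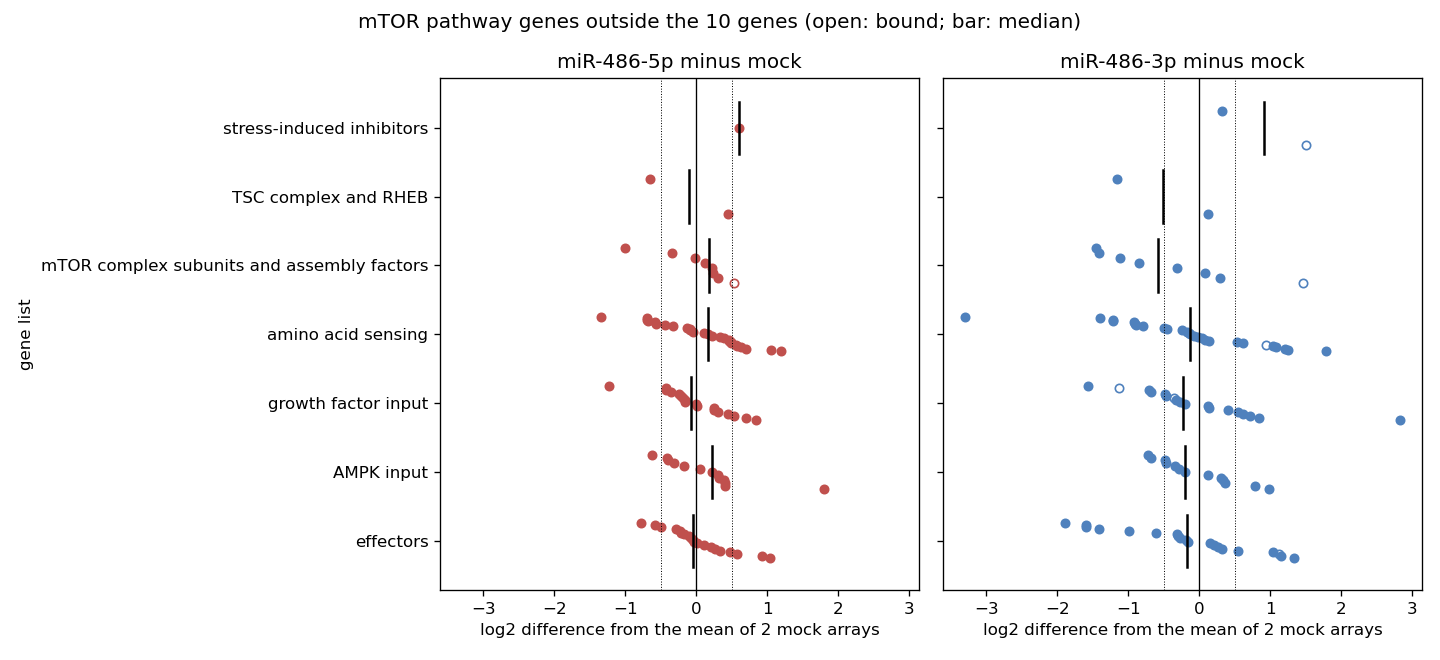
Log2 difference from the mock mean of 2 arrays (horizontal axis) for each measured pathway gene outside the 10, in 7 lists (vertical axis), after *miR-486-5p* (left) and *miR-486-3p* (right); open points are bounds, and black bars are list medians. The values after *miR-486-3p* are spread more widely, from -3.30 to 2.84.

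Among the genes of amino acid sensing, 4 of 27 were called after *miR-486-5p*, all higher, and 19 of 27 after *miR-486-3p*, 11 lower and 8 higher, against 10.2% (3.58% higher) and 62.2% of all genes. For *miR-486-5p*, 0 were called on the authors' log2 values and 0 with no filter on dim probes, where 0 of all genes were, 5 lower and 5 higher under median scaling (14.1% and 6.54% of all genes), and 6 and 12 with normexp correction (23.1% and 22.2%). The *miR-486-3p* calls were 15 lower and 6 higher under median scaling (45.5% and 20.5%). *KPTN* and *ITFG2*, which belong to the KICSTOR complex that anchors GATOR1 to the lysosome, rose after *miR-486-5p* by 1.20 (SE 0.104) and 1.05 (SE 0.0880), both at a limma adjusted p of 0.0476. With normexp correction *KPTN* was at 0.62. With the other strand, *miR-486-3p*, *ITFG2* fell, with a difference of -0.88, and *KPTN* was at -0.17 (limma adjusted p = 0.263), or -0.54 under median scaling. *KPTN* was at 0.005 after *miR-486-3p* with normexp correction. *NPRL3* and *NPRL2*, subunits of GATOR1, went opposite ways after *miR-486-3p*: *NPRL3* fell, with a difference of -3.30 (SE 0.0891, limma adjusted p = 0.00762), and *NPRL2* rose by 1.80 (SE 0.0879, limma adjusted p = 0.00766). On the arrays *NPRL3* was at 3.12 and 3.15 in mock cells, 2.45 with *miR-486-5p* and -0.17 with *miR-486-3p*. After *miR-486-3p*, *CASTOR1*, an arginine sensor, rose by 1.22. The 5 genes of the Ragulator scaffold did not go 1 way after this strand: *LAMTOR5* rose by 1.25, and of the other 4, named after their values were seen, *LAMTOR2* and *LAMTOR3* rose by 1.09 and 0.94, while *LAMTOR1* and *LAMTOR4* fell, with differences of -1.21 and -0.80. *LAMTOR2* was at 0.71 under median scaling, and *LAMTOR3*, whose value is in part a bound, at 0.57 there and at 0.43 with normexp correction. The Rag GTPase gene *RRAGB* was at -1.34 after *miR-486-5p* and missed the threshold (limma adjusted p = 0.0538), and with normexp correction it was at -0.12. The other Rag GTPase genes lay on the other side of mock after this strand, from 0.395 to 0.703, and none passed the threshold.

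Among growth factor genes, 3 of 18 were called after *miR-486-5p* (10.2% of all genes) and 12 of 18 after *miR-486-3p* (62.2%). *INSR*, the insulin receptor, was at -0.67 and -0.76 in mock cells, -0.71 with *miR-486-5p* and 2.12 with *miR-486-3p*. It rose by 2.84 after *miR-486-3p* (SE 0.0996, limma adjusted p = 0.00762) and was at 0.00 after *miR-486-5p*. *IRS1*, its adaptor, was at -1.23 after *miR-486-5p* as the mean of 2 probes, 1 of which was called, and at -0.49 with normexp correction. *PHLPP2*, an AKT phosphatase, was at 0.71 after *miR-486-5p*, with 0 of 2 probes called, and at 0.40 with normexp correction.

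Of the AMPK genes, 1 of 13 was called after *miR-486-5p* (10.2% of all genes) and 7 of 13 after *miR-486-3p* (62.2%). That 1 gene was *CAB39L*, a scaffold of the STK11 kinase complex, which rose by 1.81 over 3 probes, all 3 called. *STK11* was at -0.41 after *miR-486-5p* (limma adjusted p = 0.0855) and fell after *miR-486-3p*, with a difference of -0.67 (limma adjusted p = 0.0197) that was -1.04 under median scaling. Of the mTOR complex and assembly genes, 1 of 8 was called after *miR-486-5p* and 5 of 8 after *miR-486-3p*, against the same shares of all genes. *TELO2*, which helps assemble mTOR and related kinases, fell after both strands, with differences of -1.01 and -0.84.

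Of the effectors, 2 of 20 were called after *miR-486-5p* (10.2% of all genes) and 15 of 20 after *miR-486-3p* (62.2%), 8 lower and 7 higher, or 13 lower and 5 higher under median scaling, where 45.5% of all genes were lower and 20.5% higher. *EIF4EBP1*, a repressor of cap-dependent translation, fell after *miR-486-3p*, with a difference of -1.89 (SE 0.0878, limma adjusted p = 0.00762), whereas its relative *EIF4EBP2* rose by 1.33 over 2 probes. *EIF4G1*, the scaffold of the cap-binding complex, fell, with a difference of -1.60. *SGK1*, a kinase downstream of the second mTOR complex, rose by 0.93 after *miR-486-5p* (SE 0.0876, limma adjusted p = 0.0476) and fell after *miR-486-3p*, with a difference of -1.60. *ATG13*, an autophagy factor, was at 1.03 after *miR-486-5p*, with 1 of 2 probes called. *RPS6KA1*, a kinase of the RSK family, was at -0.18 and 0.33, with 0 and 1 of 2 probes called. With *miR-486-3p* it was at -0.04 under median scaling, on the other side of mock, and at 0.50 by its brightest probe; with *miR-486-5p* it was at -0.08 with normexp correction.

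Programmes known to induce *DDIT4* were described with 28 genes. The hypoxia genes *CA9* and *EGLN3* were not well above background for either strand and were not tested. Of 26 tested genes, 5 were called after *miR-486-5p*, all lower, and 20 after *miR-486-3p*, 13 lower and 7 higher. Over all genes, 6.66% were called lower with *miR-486-5p*, and with the other strand 31.6% were called lower and 31.9% higher. For *miR-486-5p*, 0 were called on the authors' log2 values and 0 with no filter on dim probes, 10 lower and 2 higher under median scaling (14.1% and 6.54% of all genes), and 12 and 5 with normexp correction (23.1% and 22.2%). The *miR-486-3p* calls were 16 lower and 6 higher under median scaling (45.5% and 20.5%). Of 6 ATF4 genes, 2 were called with *miR-486-5p* and 5 with *miR-486-3p*, all lower, where 6.66% and 31.6% of all genes were. The *miR-486-3p* count was 4 with quantile normalization and on the authors' log2 values, and with normexp correction 1 gene was called higher for each strand, beside 4 lower for *miR-486-5p* and 5 for the other. *DDIT3*, a transcription factor of the stress response, named after its values were seen, was at 0.57 after *miR-486-5p* (limma adjusted p = 0.0600), or 0.498 under median scaling, on the other side of mock from *CHAC1*, and fell after *miR-486-3p*, with a difference of -0.47 that was -0.84 under median scaling. *CHAC1*, a glutathione-degrading enzyme, fell after both strands, with differences of -1.31 and -3.34 over 2 probes, the latter at -2.11 with normexp correction. *ATF4*, the transcription factor, also fell after both, with differences of -0.90 and -0.58. The second value was -0.31 with quantile normalization, -0.34 on the authors' log2 values and -0.95 under median scaling. *TRIB3* and *ASNS* fell after *miR-486-3p*, with differences of -2.33 and -2.06, and were at 0.04 and -0.46 after *miR-486-5p* (*ASNS* at -0.54 under median scaling). Of 6 p53 genes, 2 were called after *miR-486-5p*, both lower, and 5 with *miR-486-3p*, 4 lower and 1 higher. The *miR-486-5p* calls were 2 lower and 1 higher under median scaling (14.1% and 6.54% of all genes). They were 2 and 2 with normexp correction (23.1% and 22.2%). *GDF15* and *BBC3* fell after both strands, with differences of -1.48 and -1.04 after *miR-486-5p* and of -1.01 and -0.74 after *miR-486-3p*. Under median scaling *BBC3* was at -1.11 after *miR-486-3p*. *CDKN1A*, a cell cycle inhibitor, was at 0.76 after *miR-486-5p* (limma adjusted p = 0.0523), or 0.36 with normexp correction, and rose by 0.48 after *miR-486-3p* (limma adjusted p = 0.0365), where it was at 0.105 under median scaling, a setting in which 0 of the p53 genes were called higher, and at 0.31 with normexp correction.

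Of 7 hypoxia genes, 1 was called lower after *miR-486-5p* (6.66% of all genes), while 3 were lower (31.6%) and 2 higher (31.9%) after *miR-486-3p*. Under median scaling 4 were lower with *miR-486-5p* (14.1% of all genes) and 1 was higher (6.54%), and 5 were lower with *miR-486-3p* (45.5%) and 2 higher (20.5%). For *miR-486-5p*, 0 were called on the authors' log2 values and with no filter on dim probes. The 1 gene was *VEGFA*, a growth factor for blood vessels, named after its value was seen: it was at -0.82 as the mean of 2 probes, 1 of which was called (limma adjusted p = 0.0476 and 0.0609). *NDRG1* was at 0.87 after *miR-486-5p* (limma adjusted p = 0.0525) and rose by 2.53 after *miR-486-3p*, and *ANKRD37* was at -0.34 and rose by 1.36. *BNIP3*, a mitophagy receptor, was at -0.99 and -0.46 and passed the threshold after neither strand (limma adjusted p = 0.0503 and 0.0535). Its second value was -0.14 with quantile normalization and on the authors' log2 values, -0.83 under median scaling and -0.52 without mock replicate 2. Of 7 glucocorticoid receptor genes, limma called 0 for *miR-486-5p* (10.2% of all genes), where 3 had an unadjusted p below 0.05, and 5 for *miR-486-3p* (62.2%), 1 lower (31.6%) and 4 higher (31.9%). Under median scaling 2 were called for *miR-486-5p*, both lower (14.1%). The single lower gene, *FKBP5*, fell, with a difference of -1.86 by 1 of its 2 probes, or -0.98 with normexp correction. That probe was at 0.31 and 0.23 in mock cells and at -1.59 with *miR-486-3p*. Without mock replicate 1 the other probe also came into use, and the mean difference was -1.10. *DUSP1* rose by 1.52.

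**Figure D4:**
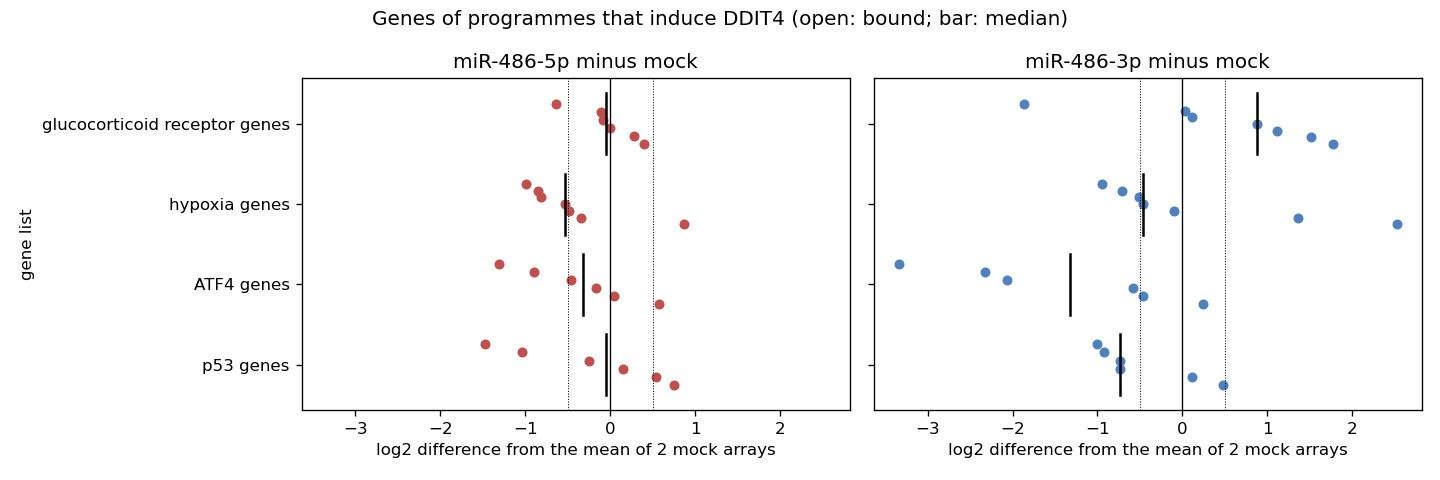
Log2 difference from the mock mean of 2 arrays (horizontal axis) for each measured gene of 4 programmes that induce *DDIT4* (vertical axis), after *miR-486-5p* (left) and *miR-486-3p* (right); open points are bounds, and black bars are list medians. The ATF4 genes after *miR-486-3p* reach -3.34.

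The 5 genes most like *DDIT4*, by Euclidean distance between the differences from the mock mean on the 4 arrays, were *DCST1-AS1* (0.293), *ITGA10* (0.721), *DPYSL5* (0.775), *SLC25A10* (0.893) and *RHPN1-AS1* (0.902), out of 14370 genes ranked. *DCST1-AS1*, an antisense RNA gene, was at 0.09 and -0.19 in mock cells, -2.94 with *miR-486-5p* and -1.61 with *miR-486-3p*. All 5 were lower after *miR-486-5p* than after *miR-486-3p*, as *DDIT4* was, and none belongs to the pathway lists. With normexp correction the likeness was smaller: after *miR-486-5p* *DDIT4* was at -2.79, and the 5 genes lay between -1.20 for *ITGA10* and -0.87 for *RHPN1-AS1*. *DPYSL5* after *miR-486-3p* was at -0.86 over 2 probes and at -2.17 by its brightest probe. Likeness over 4 arrays was the rule that chose them, so it is not tested.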

How the data were processed

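The authors deposited, per the file headers, the spot intensity of 4 one-color arrays from Agilent Feature Extraction 12.1.1.1, already corrected for background, and a table of log2 values of the same arrays whose normalization is not given in the sources used here. The log2 of the processed signal minus each array's 75th percentile was taken, outlier spots (50 to 72 per array) were left out, and spots of a probe were averaged. Probes were named through RefSeq accessions (GRCh38.p14, names alone; 31104 of 33080 matched). For each strand, the probes in use were those well above background with the transfected RNA or with both mock RNAs. A group not well above background on any of its arrays was raised to the lowest signal well above background, which gives a bound. Differences of the probes in use were averaged per gene, with a limit of 0.5.

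limma 3.58.1 (R 4.3.3) was fitted with 3 groups to the 33498 probes that any group showed well above background, with Benjamini-Hochberg adjustment at 0.05; a gene was called if at least 1 probe was. The only residual degree of freedom lies between the mock arrays (prior 1.75 degrees of freedom, SD 0.0893). Nothing says that the mock arrays are separate cultures, so p-values measure the spread between these arrays, which may be technical.

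The plan did not state whether limma took values with the floor, and its alternative without the floor can be read as setting one. It was run both ways, and also with calls restricted to probes in use for the contrast, and all 3 sets of counts, as well as counts from an earlier analysis of these arrays, were known when values without the floor and all fitted probes were kept. That earlier analysis describes a fit without the floor, and the floor narrows the spread between the mock arrays. Over all genes after *miR-486-5p* the choices gave 1109 lower and 596 higher (used here), 2146 and 1641 (floor) and 1088 and 564 (probes in use).

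The members and lists were chosen with earlier results of these data known. Named genes are the 10 genes, the 8 largest changes per strand and direction among list genes past 0.5, well above background on all 4 arrays and above or below both mock arrays, *RPS6KA1*, *STK11* and *EIF4EBP1*, and the 5 genes most like *DDIT4*; outside this rule, *VEGFA*, *DDIT3* and *LAMTOR1* to *LAMTOR4* were named after their values were seen, and 1 other gene is not reported here, although the counts include it. Alternatives were normexp (offset 50), quantile normalization, scaling to the median, either mock array left out, the authors' log2 values, other filters on dim probes, the brightest probe, a limit of 1 and an intensity trend. The limma step was run on simulated data in which all 4 arrays had the spread of the mock arrays. That run therefore cannot check whether the transfected arrays have this spread. The number of arrays limits the precision.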

Additional observations from a re-analysis of the deposited data

How the results depend on the processing

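No paired analysis was possible because the strands have a single array each, and the labels do not pair a strand array with a mock array. With a mock array left out no residual degree of freedom remains for limma, and those values carry no test. *DDIT4* stayed below -0.5 after both strands under all 9 settings run for it. After *miR-486-5p* it was at -3.14 with median scaling, -3.01 with quantile normalization, -2.79 with normexp and -3.01 on the authors' log2 values, and from -3.07 to -3.05 with a mock array left out. After *miR-486-3p* it was at -1.82, -1.31 and -1.31 with median scaling, quantile normalization and the authors' log2 values, and from -1.46 to -1.44 with a mock array left out.

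Of the pathway genes after *miR-486-5p*, 12 were lower and 15 higher; with median scaling 15 and 10 were, with normexp 7 and 8, and with a limit of 1, 3 and 4. With a mock array left out, 10 to 14 were lower and 15 to 17 higher. After *miR-486-3p*, 25 were lower and 22 higher; with median scaling 47 and 14 were, with a limit of 1, 14 and 12, and with normexp 12 were higher. With a mock array left out, 25 to 27 were lower and 22 higher.

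The 11 limma calls after *miR-486-5p* (2 lower, 9 higher) became 25 with median scaling (13 and 12), 54 with normexp (24 and 30), 44 when all 4 arrays had to be well above background (18 and 26) and 56 with an intensity trend (27 and 30). limma called 0 on the authors' log2 values and 0 with no filter, where 53 list genes had an unadjusted p below 0.05 in each. On values with the floor, a setting chosen after seeing the data, it called 29 (12 and 17), and restricted to probes in use for the contrast, also chosen after seeing the data, it called 11. Over all genes, the calls after *miR-486-5p* were 1700 here, 3771 with the floor, 3419 with median scaling, 7434 with normexp, 5727 when all 4 arrays had to be well above background, 7761 with a trend, and 0 on the authors' log2 values and with no filter, where 7997 and 9219 genes had an unadjusted p below 0.05. In the fit used here, every call after *miR-486-5p* had a limma adjusted p just below the threshold of 0.05. On the authors' log2 values and with no filter, the lowest limma adjusted p of any probe for this strand was above 0.05. The cause of the other differences was not tested. The counts after *miR-486-3p* (60) and between the strands (51) stayed within 1.5 times under the settings run, from 47 to 73 and from 35 to 66. The split of the former, 35 lower and 26 higher, did not: it was 53 and 17 with median scaling.

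For the 51 other named genes with a value, 918 values were recomputed; 0 of those past the limit changed sign, 316 moved by more than the SD of the mock arrays, and 41 changed side of the limit. Signal over background limits *DDIT4L*, which was not well above background on any array.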
